A study of Mus musculus with 2 samples.

Results

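The Cst7 and Gpnmb field was the set of 16 µm bins in the 28 days section in which transcripts of Cst7, a cystatin of lysosomes, and Gpnmb, a membrane glycoprotein of lipid-laden phagocytes, were dense. A bin with at least 100 UMIs (unique molecular identifiers, each counting 1 probe ligation event) belonged to the field when the 3 by 3 block of bins around it held at least 5 UMIs of the 2 genes and the 5 by 5 block held fewer than 3 UMIs of Mmp3, Saa3 and Steap4. The last 3 genes marked a separate set of lesion bins and kept those out. The field held 4991 of 103316 bins, or 4.83% of the section, and covered 1.2777 mm². Because these 5 genes chose the bins, they are not results here, and every other gene describes the chosen bins without a test.

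The section came from a male C57Bl6 mouse (C57BL/6J in the study's methods), 3 months old at impact, 28 days after controlled cortical impact (CCI), a focal injury made by driving a piston into the cortex of the right parietal lobe. The other section, used side by side at the end, came from a mouse of the same strain and sex, of the same age at impact, 3 days after CCI. CCI was done under ketamine and medetomidine anaesthesia with buprenorphine and local bupivacaine for pain, and the labels give no experimental treatment. Sections of sham-operated mice were not analysed here. Expression was measured on fixed, paraffin-embedded tissue with Visium HD, which counts gene probes on a grid of barcoded squares. Each group had 1 section, so no p-values were computed. Intervals are 95% intervals of counting error only and leave out the spread between animals. A bin can hold parts of several cells, and in such bins fewer cells of a type and less RNA per cell cannot be told apart.

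Microglia are the resident macrophages of the brain. Near dead cells or myelin debris they can enter a state known as disease-associated microglia (DAM), in which the receptor Trem2 and its adaptor Tyrobp signal, homeostatic genes decline, and genes for lipid transport, lysosomal breakdown and antigen presentation increase. Macrophages derived from blood monocytes can take on many of the same genes, so these transcripts do not separate the 2 origins.

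The field lay almost wholly on 1 side of the section. Of its bins, 4988 were at columns below 240, where the symmetry axis of the section ran, and 3 were beyond it. The labels do not say which side of the array was injured, and it was taken as the side at columns below 240, which the rule uses and which holds the cavity. Members formed 85 connected patches. The largest held 3723 bins (74.6%) and spanned 1.39 mm across and 1.42 mm in depth, at 911 to 2280 µm (median 1527) from the axis. The second held 581 bins (11.6%) at 2329 to 3235 µm (median 2778). A further 55 bins formed the third patch, and the other 82 patches held 632 bins in all, the median patch having 4.

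The field was next to the Mmp3, Saa3 and Steap4 bins and extended well beyond them. Those 891 bins lay mainly along the cavity wall and the medial cortical margin. Their median depth below the top of the tissue was 432 µm, but some lay as deep as 1600 µm. Bins of the second patch lay 16 to 701 µm (median 250) from the nearest of them, and bins of the largest patch 80 to 997 µm (median 602).

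**Figure D1:**
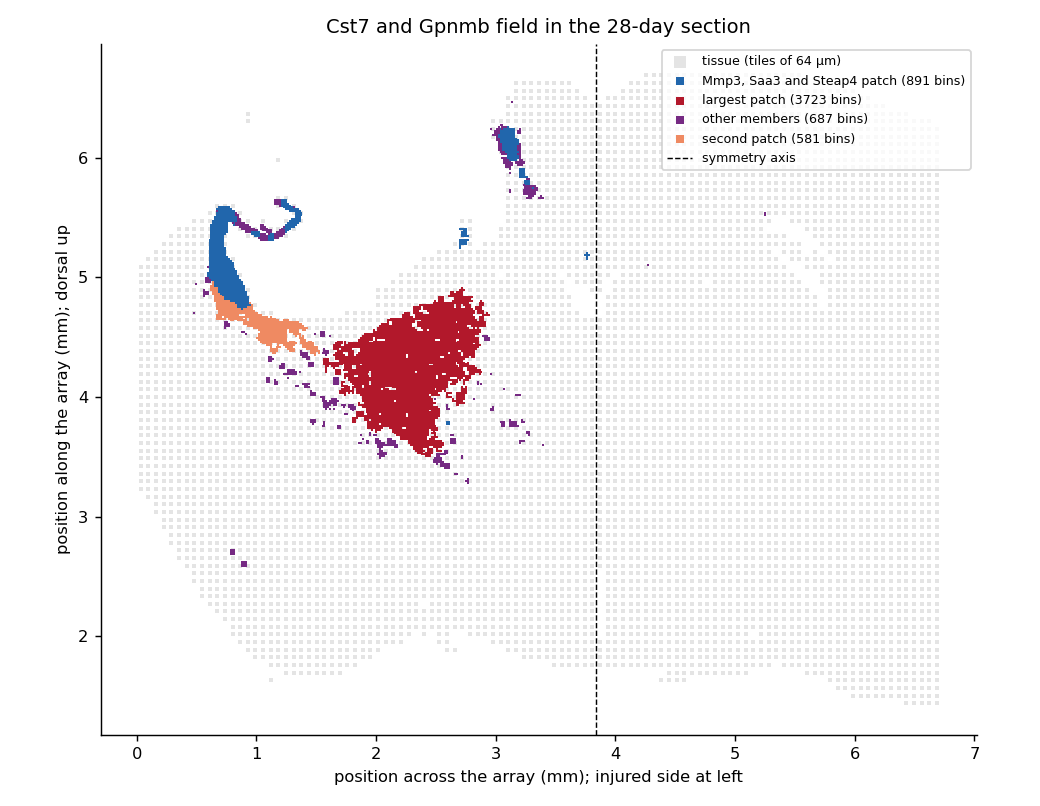
Positions of the field in the 28 days section, in mm across and along the array. Red, orange and purple squares are members by patch, blue squares are the 891 Mmp3, Saa3 and Steap4 bins, grey squares are tissue, and the dashed line is the symmetry axis (its tilt of 1 degree is not drawn). The largest patch, with 3723 bins, is deep to the cavity, and the second, with 581 bins, adjoins the cavity wall.

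The tissue across the axis shows which regions lay opposite the patches, as far as the deformed injured side allows. Members were reflected across the axis, which gave 4623 mirror bins (92.6% of members). Tissue mirroring the largest patch carried transcripts of thalamic relay neurons, with 995 CPM (the UMIs of a gene once every set of bins is brought to the same total) of Prkcd, a protein kinase C of these neurons, 404 CPM of the transcription factor Tcf7l2 and 310 CPM of Ramp3, against 25.6 CPM of the striatal gene Ppp1r1b. The largest patch itself held 368 CPM of Prkcd, 128 CPM of Tcf7l2 and 41.1 CPM of Ramp3. Tissue mirroring the second patch was instead striatal in profile, with 3146 CPM of Ppp1r1b and 3461 CPM of the opioid precursor Penk, against 11.8 CPM of Prkcd. The second patch held 184 CPM of Ppp1r1b and 390 CPM of Penk. Only 347 bins (59.7%) of the second patch had mirror bins, because the array ended before the matching lateral tissue.

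Members were shallower than the bins around them, which bears on every level below. They held a mean of 498 UMIs, against 779 in the 44490 remaining bins at columns below 240, 635 in the 10121 bins of a ring 48 to 240 µm away, 636 in the mirror tissue and 1617 in the Mmp3, Saa3 and Steap4 bins, which are among the remaining bins. Levels are therefore given as CPM, and the closing section gives the counts on the scale of UMIs per bin. On the CPM scale the median of all 11956 genes with at least 200 UMIs was -0.13 (log2 ratio of field over remaining bins).

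Against the remaining bins, 1289 genes (10.8%) were at least 2-fold higher in the field and 1869 (15.6%) at least 2-fold lower. Spp1, which encodes the secreted phosphoprotein osteopontin, had the highest ratio. It stood at 3699 CPM in the field, 117 CPM in the remaining bins, 93.6 CPM in the ring and 46.9 CPM in the mirror tissue, a log2 ratio of 4.98 (4.93 to 5.03) against the remaining bins. Over 70 tiles of 128 µm inside the field, Spp1 ranged from 774 to 9830 CPM with a median of 4314. In 60 mirror tiles it ranged from 0 to 359 CPM, so the tiles did not overlap. In 157 ring tiles it reached 1025 CPM, above the lowest tile of the field. Tiles of a single section share an animal and are not replicates.

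The genes next in rank were of several kinds. Siglecf, a receptor for sialic acid, had a log2 ratio of 4.64 (4.27 to 5.03), and Itgax, the integrin chain CD11c, one of 4.34 (4.08 to 4.60). Itgax had 304 UMIs in the field and 0 in the mirror tissue, at least 120-fold higher against a floor of 3 counts over that tissue. Lag3, an inhibitory receptor best known from T cells, had 367 CPM in the field and 22.4 CPM outside it, with a ratio of 4.04 (3.90 to 4.18). Most T cell markers given here were also higher in the field than in the remaining bins, at low levels. The 10 genes of the T cell list summed to 41.8 CPM in the field, 17.6 CPM in the remaining bins and 13.9 CPM in the mirror tissue, and none reached the minimum of 200 UMIs. Cd3e, Cd3d and Cd3g of the T cell receptor complex stood at 0.804, 2.81 and 3.62 CPM in the field and 0.346, 0.346 and 0.549 CPM in the remaining bins. Cd8a stood at 5.23 and 0.346 CPM (13 UMIs in the field) and Cd5 at 6.43 and 0.953 CPM (16 UMIs). Cd4 was nearly level, at 2.01 and 1.76 CPM (5 UMIs in the field), and stood at 3.74 CPM in the mirror tissue. The study lists Lag3 beside Csf1r as a gene of myeloid cells. The part of T cells in the Lag3 result was not tested.

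Secreted proteins, receptors and a transcription factor were among the rest of the 15 highest. Plau, the protease urokinase, reached a log2 ratio of 4.07 (3.90 to 4.24) and Serpinf2, an inhibitor of plasmin, 4.13 (3.82 to 4.45). The chemokine Ccl3 stood at 89.2 CPM against 5.46 CPM (4.03, 3.75 to 4.32), and Atf3, a transcription factor of the stress response, at 93.6 CPM against 6.50 CPM (3.85, 3.58 to 4.12). Apoc4, an apolipoprotein, had a log2 ratio of 4.02 (3.62 to 4.43) and Serpina3n, a secreted protease inhibitor, one of 3.78 (3.73 to 3.83). The receptors Cd72 and Gpr183 stood at 56.3 and 39.4 CPM in the field and 4.10 and 3.15 CPM in the remaining bins. H2-Q6, H2-Q7 and Lilrb4a were also among the 15 highest, but each has near-identical relatives, so which gene their probes counted is uncertain.

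Phagocyte genes other than the chosen ones were high in the field as a whole. Of the 8 markers set for phagocytes, Tyrobp stood at 1596 CPM against 138 CPM in the remaining bins, C1qa at 3434 against 296 CPM, Trem2 at 356 against 29.6 CPM and Cd68 at 395 against 39.8 CPM. Laptm5, Ctss, Csf1r and Lyz2 had log2 ratios above 2 as well. By tile the field and the ring overlapped, with Lyz2 from 41.2 to 1989 CPM (median 568) in field tiles and up to 519 CPM in ring tiles, and Laptm5 from 70.4 to 1133 CPM (median 579) and up to 486 CPM. In the DAM list 22 of 23 tested genes were at least 2-fold higher, with a median log2 ratio of 3.02, and Ank was within 2-fold (0.86). All 14 tested genes of the Trem2, DAP12 and Fc receptor list were higher (median 3.06). These lists were written with earlier results of these data known and are descriptions only.

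Genes of the lipid and lysosomal machinery were higher in most cases. Apoe, the main lipid carrier of the brain, stood at 58332 CPM in the field, 7937 CPM in the remaining bins and 3231 CPM in the mirror tissue, a log2 ratio of 2.88 (2.87 to 2.89) against the remaining bins. In the list for lipid uptake and efflux, 14 of 19 tested genes were higher (median 1.76). Lpl, a lipase, had a log2 ratio of 3.29 (3.15 to 3.42), and the cholesterol exporter Abca1 2.25 (2.15 to 2.34).

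In the lysosome list 27 of 32 tested genes were higher and none lower (median 2.26). The protease Ctsd reached 2077 CPM in the field, with 230 CPM outside (3.17, 3.12 to 3.22), and Ctsa, a carboxypeptidase, 367 CPM against 75.5 CPM (2.28, 2.17 to 2.39). The calcium channel Mcoln1 stood at 59.9 CPM against 66.7 CPM (-0.15, -0.40 to 0.08), so not every lysosomal gene was higher.

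Since these genes were high together, their promoters were searched for 2 short motifs, in the 250 bases before the start of each gene on both strands. TCACGTGA, the core of the element that TFEB and related factors bind, occurred in 3 of 26 lysosome genes with a promoter sequence (11.5%) and in 191 of 14080 genes of the probe set (1.36%). It also occurred in 1 of 9 homeostatic microglia genes (11.1%) and 1 of 18 DAM genes (5.56%). GAGGAAGT, a form of the site of the myeloid factor PU.1, occurred in 1 of 18 DAM genes, which was Spp1, and in 387 of 14080 genes (2.75%). It also occurred in 2 of 13 genes of the Trem2, DAP12 and Fc receptor list (15.4%) and 1 of 26 lysosome genes (3.85%). Neither motif occurred in the 10 neuron or 11 oligodendrocyte genes with a promoter sequence. Some immune lists lacked a motif too. TCACGTGA occurred in 0 of 13 genes of the Trem2, DAP12 and Fc receptor list, and GAGGAAGT in 0 of 9 homeostatic microglia genes. A match describes letters and is no evidence that a factor was bound. The windows below are from RefSeq (GRCm38.p6), read 5′ to 3′ on the strand of the gene, with the motif in capitals. The 3 lysosomal genes carrying the same motif are shown with Spp1, because Ctsd and Ctsa were high in the field and Mcoln1 was not.
Ctsd, chr7:142387879-142387966, minus strand: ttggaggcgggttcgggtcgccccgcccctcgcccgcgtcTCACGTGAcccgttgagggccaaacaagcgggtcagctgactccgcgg
Ctsa, chr2:164833720-164833772, plus strand: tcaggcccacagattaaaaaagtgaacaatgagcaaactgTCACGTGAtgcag
Mcoln1, chr8:3500433-3500518, plus strand: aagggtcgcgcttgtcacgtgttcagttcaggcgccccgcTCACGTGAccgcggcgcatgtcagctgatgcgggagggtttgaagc
Spp1, chr5:104434958-104435045, plus strand: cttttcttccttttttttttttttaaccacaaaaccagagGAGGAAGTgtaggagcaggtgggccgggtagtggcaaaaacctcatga

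Against the ring, which leaves out the bins nearest the field, 697 genes (8.11%) were at least 2-fold higher and 1186 (13.8%) lower. There 22 of 23 DAM genes (median 2.96) and 26 of 31 lysosome genes (median 2.10) were higher. These lists therefore stood apart from the ring, but the 3510 bins between field and ring were not compared by list. Apoe of the DAM list stood at 58332 CPM in the field, 25190 CPM in those bins and 7370 CPM in the ring. Cd68 of the lysosome list stood at 395, 173 and 39.9 CPM, so both genes were intermediate there.

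Immune effector genes were also high. The complement list had 12 of 13 tested genes higher (median 2.29), led by C1qa with a log2 ratio of 3.54 (3.50 to 3.58). All 13 tested antigen presentation genes were higher (median 2.55). Cd74, the invariant chain of MHC class II, stood at 368 CPM in the field and 2.72 CPM in the mirror tissue. The interferon-stimulated list had 13 of 15 higher (median 2.08), with Ifi27l2a at 3.04 (2.81 to 3.27), and 9 of 10 tested chemokine and cytokine genes were higher (median 2.60).

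Homeostatic microglia genes were not low in the field as CPM. Of 13 tested, 10 were higher (median 2.09). Fcrls reached a log2 ratio of 3.59 (3.51 to 3.67), against 1.15 (0.84 to 1.43) for Tmem119 and 0.99 (0.65 to 1.31) for P2ry12, the purinergic receptor of surveying microglia.

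Glial genes other than those of microglia accompanied the field. Gfap, the intermediate filament of reactive astrocytes, stood at 6339 CPM in the field, 943 CPM in the remaining bins and 111 CPM in the mirror tissue. Aqp4, the astrocytic water channel, stood at 2038, 330 and 216 CPM. In the astrocyte list 13 of 18 genes were at least 2-fold higher (median 1.11), with the glutamate transporter Slc1a2 at -0.13 (-0.18 to -0.08). The part of astrocytes in the other results was not tested.

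The place of the oligodendrocyte list depended on the reference. Against the remaining bins 11 of 14 oligodendrocyte genes were higher (median 1.32). Against the mirror tissue, where 664 genes (9.99%) were higher and 1031 (15.5%) lower, none of the 14 was higher and 1, Mal2, was lower (median 0.20). Mal2 did not follow Mbp, so its place in this list is uncertain. Its median was 0 CPM over field tiles and 74.1 CPM over mirror tiles, against 3974 and 2575 CPM for Mbp. Mbp stood at 3824 CPM in the field, 1201 CPM in the remaining bins and 2971 CPM in the mirror tissue. Endothelial genes likewise had 6 of 12 higher against the remaining bins and 0 of 6 against the mirror tissue, where Cldn5 of tight junctions had a log2 ratio of 0.64 (0.39 to 0.89).

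Most neuronal genes were low. Of 18 in the list, 14 were at least 2-fold lower than in the remaining bins (median -1.53) and 18 lower than in the mirror tissue (median -1.97). Snap25 of the synaptic release machinery stood at 1003 CPM in the field and 3892 CPM in the mirror tissue, Rbfox3, the nuclear marker NeuN, at 33.4 and 171 CPM, and Nefh, the heavy neurofilament, at 91.2 and 427 CPM. Against the remaining bins, with 72.6 CPM, Nefh was instead slightly higher (0.33, 0.13 to 0.53) and had the highest ratio of the list. The place of thalamic genes likewise depended on the reference. At least 2-fold lower were 7 of 8 against the mirror tissue (median -1.65), 2 of 8 against the ring (median -0.93) and 0 of 8 against the remaining bins (median -0.07), where Prkcd stood higher, at 313 CPM in the field and 157 CPM outside (0.99).

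Some genes outside the neuron list went the other way in the largest patch. Those given here had been named for high ratios against the lesion bins or of core over edge. They form no set list, and which cells held them was not tested. Against its own mirror tissue 455 of 5181 genes (8.78%) were at least 2-fold higher. Ecel1, an endopeptidase known to be induced in injured neurons, stood at 205 CPM in the largest patch and 8.38 CPM in its mirror tissue, a log2 ratio of 4.58 (3.95 to 5.36). Cabp7, a calcium-binding protein, stood at 152 and 5.29 CPM (4.79, 4.02 to 5.82), and Scg2, a granin of secretory vesicles, at 209 and 70.6 CPM (1.57, 1.30 to 1.85). Trim62, a ubiquitin ligase, stood at 178 and 29.1 CPM (2.60, 2.22 to 3.02). The whole opposite side held 34.1 CPM of Ecel1 and 80.7 CPM of Cabp7. Both levels were below the largest patch and above its mirror tissue, so both genes were present elsewhere on that side. Displacement of tissue and altered transcription at this place cannot be told apart in 1 section.

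**Figure D2:**
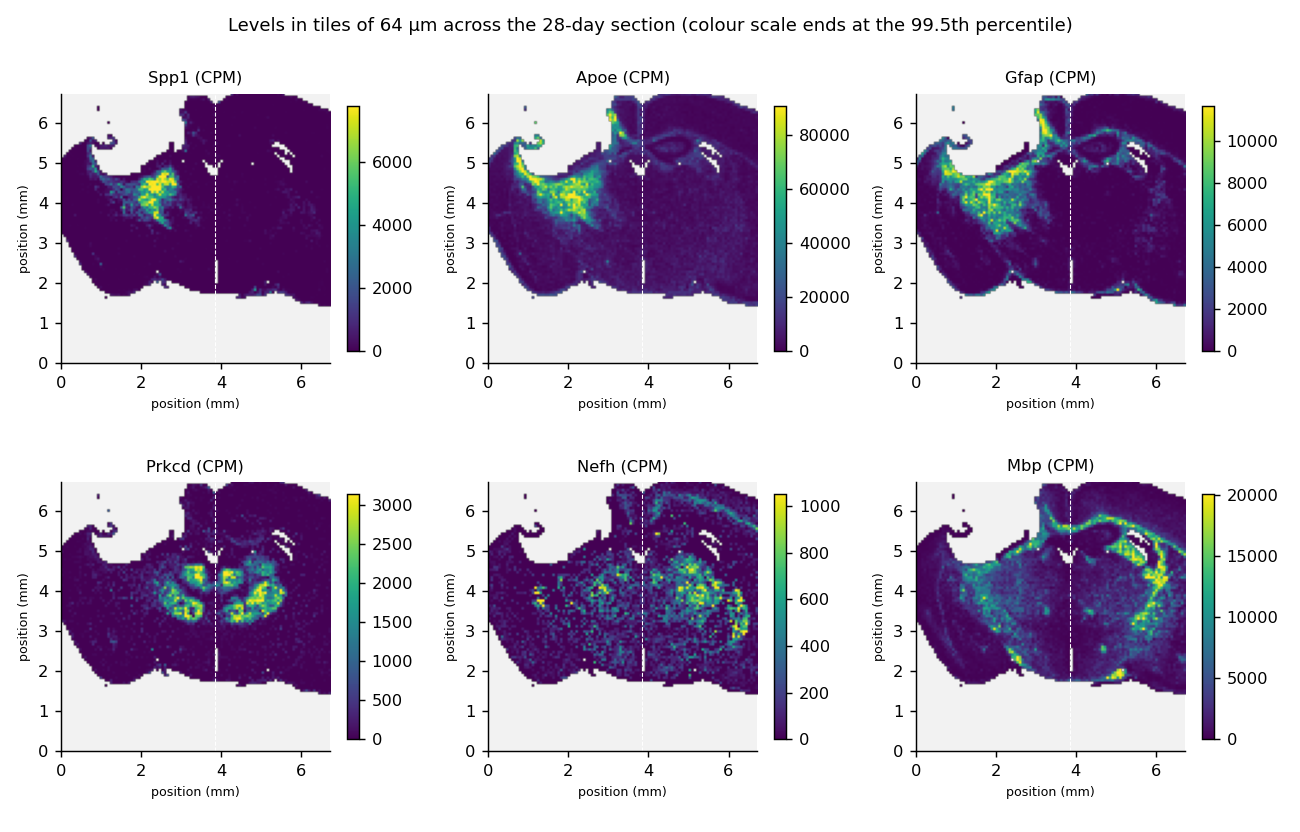
Levels of 6 genes in CPM over tiles of 64 µm across the 28 days section, with axes in mm and the symmetry axis dashed. Spp1, Apoe and Gfap are high deep to the cavity, where Prkcd and Nefh are lower in the largest patch (368 and 123 CPM) than in its mirror tissue (995 and 521 CPM).

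Levels of phagocyte genes were lower with distance from the field. Spp1 stood at 5789 CPM in the core (1831 members at least 48 µm inside), 1891 CPM at the edge (2079 members under 32 µm inside), 214 CPM in bins 48 to 80 µm outside and 9.82 CPM at 336 to 640 µm. Itgax stood at 174, 83.1, 20.2 and 0.893 CPM in the same zones. Apoe stood at 70061, 46103, 13054 and 3769 CPM, and its outermost band was close to the 3231 CPM of the mirror tissue.

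Gfap had a different course. It was about as high at the edge (6369 CPM) as in the core (5997 CPM), with a log2 ratio of core over edge of -0.09 (-0.14 to -0.03), and stood at 2740 CPM at 48 to 80 µm and 334 CPM at 336 to 640 µm. Snap25 stood at 1024 CPM in the core and 3842 CPM at 176 to 320 µm. The innermost zones were chosen by the rule and by distance to it, so these gradients are descriptions of where the transcripts lay.

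**Figure D3:**
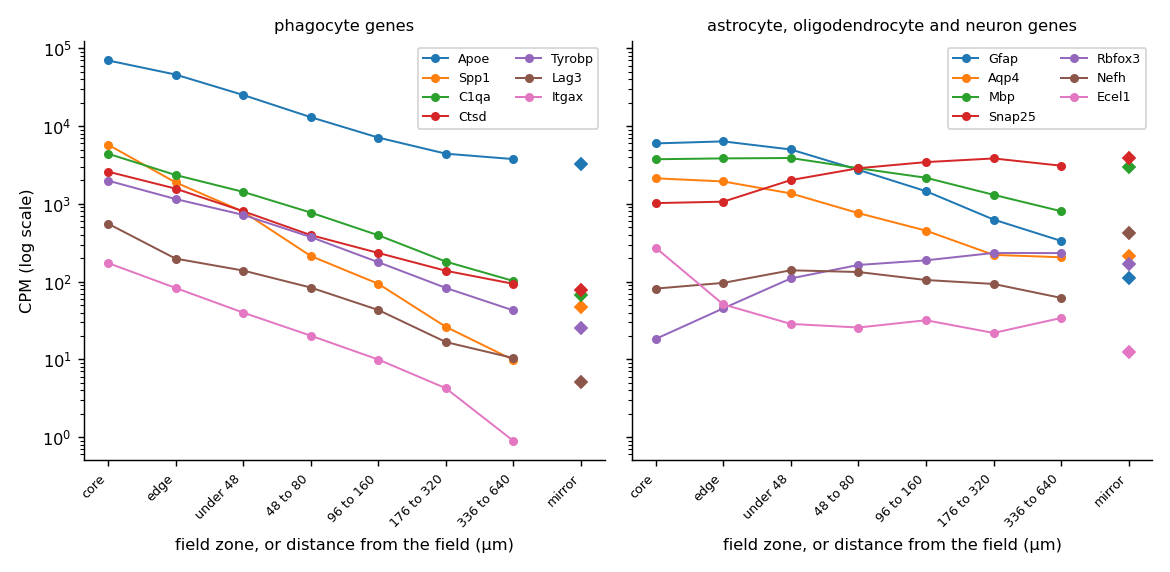
CPM on a log scale by zone: core and edge of the field, bins outside it by distance in µm, and the mirror tissue as diamonds (zones at 0 UMIs are not drawn). Apoe, Spp1 and Itgax are lower in each zone from the core to 640 µm, Gfap is about level across core and edge, and Snap25 is higher at 176 to 320 µm than in the core.

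Between core and edge, few genes differed. Of 2173 genes tested, 14 (0.644%) were at least 2-fold higher in the core and 21 (0.966%) lower. The highest was Ecel1, with 274 CPM in the core and 51.0 CPM at the edge (2.41, 1.99 to 2.88), and Scg2 (1.65), Spp1 (1.61), Lag3 (1.49) and Trim62 (1.34) followed. Pvalb, a calcium buffer of fast-firing neurons, was lower in the core, at 90.5 against 311 CPM. The fibroblast genes Dcn and Igf2 were also lower, Dcn at 17.2 against 216 CPM and Igf2 at 30.9 against 391 CPM. A patch of a few bins has no core, and the 82 small patches had a median of 4 bins. Core and edge therefore differ in their mix of patches as well as in depth. Ecel1, Spp1 and Lag3 were also higher in the largest patch than in the second. Depth inside the field and patch cannot be told apart in these ratios.

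Fibroblast transcripts were concentrated in the small patches. Dcn, a matrix proteoglycan, stood at 660 CPM in the 82 small patches, 16.7 CPM in the largest and 15.8 CPM in the second. Col1a1, a fibrillar collagen, stood at 522, 5.36 and 13.2 CPM. Over the whole field both were higher than in the remaining bins (Dcn 1.49, 1.31 to 1.67, and Col1a1 1.53, 1.32 to 1.73). When the rule allowed no UMI of Mmp3, Saa3 and Steap4 in the 5 by 5 block, Col1a1 turned to -0.54 (-0.99 to -0.15) and Dcn to -0.20 (-0.54 to 0.11), and in the largest patch alone both were lower (Dcn -1.36, Col1a1 -2.49). The ependymal gene Ccdc153 reversed in the same way, at -1.78 in the largest patch alone.

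The 2 largest patches shared much of the phagocyte profile and differed in particular genes. Of 2356 genes, 109 (4.63%) were at least 2-fold higher in the largest patch and 28 (1.19%) lower. Tyrobp stood at 1711 and 1700 CPM (0.01, -0.11 to 0.14) in the largest and second, and the median of 22 DAM genes was -0.05. Spp1 was higher in the largest, at 4883 against 1444 CPM (1.76, 1.63 to 1.88), as was Lag3, at 492 against 94.9 CPM (2.35, 1.89 to 2.90). Lag3 ranged from 92.6 to 972 CPM over 60 tiles of the largest patch and from 44.7 to 238 CPM over 8 tiles of the second, so the tiles overlapped.

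Other genes were higher in the second patch. Lgals3, a galectin of phagocytes, stood at 217 CPM in the largest and 635 CPM in the second (-1.55, -1.79 to -1.31), and the intermediate filament Vim at 1438 and 4386 CPM. Complement C3 stood at 261 and 806 CPM, and S100a4 had a log2 ratio of -4.30 (-4.68 to -3.95). The neuron list was higher in the largest patch in 8 of 12 genes (median 1.21), with Nefh at 123 against 2.64 CPM. Ecel1, which is not in that list, stood at 205 against 10.5 CPM. The second patch lay nearer the Mmp3, Saa3 and Steap4 bins, in other tissue, and the part of position in these differences was not tested.

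**Figure D4:**
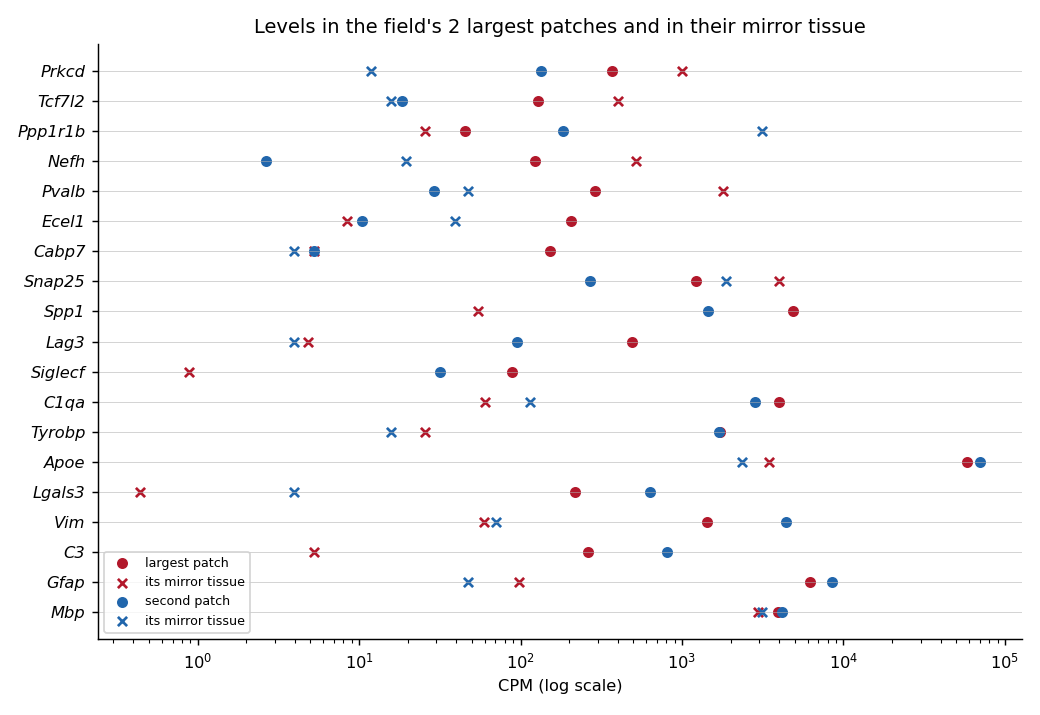
CPM on a log scale of 19 genes in the largest patch (red circles) and the second patch (blue circles), with crosses for the mirror tissue of each (values at 0 are not drawn). Thalamic Prkcd and striatal Ppp1r1b separate the mirror tissues, Tyrobp is nearly equal in the 2 patches at 1711 and 1700 CPM, and Spp1 and Lag3 are to the right in the largest patch.

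Against the Mmp3, Saa3 and Steap4 bins a smaller share of genes passed 2-fold than against the remaining bins, the ring or the mirror tissue. Of 5033 genes, 193 (3.83%) were at least 2-fold higher in the field and 129 (2.56%) lower. The DAM median was 0.36, with 2 of 23 genes higher and 1 lower, and the lysosome median was -0.07. Apoe stood at 58332 CPM in the field and 64564 CPM there. Lag3 (2.95, 2.60 to 3.34) and Spp1 (1.53, 1.46 to 1.60) were higher in the field, as were 10 of 13 oligodendrocyte genes (median 1.32). These are CPM, and the lesion bins held 1617 UMIs against 498 in members. On UMIs per bin Lag3 remained higher in the field (1.25, 0.91 to 1.64), Spp1 turned to -0.17, Mbp to -0.060, Mog to -0.25 and Ermn to -0.66, and 9 genes were at least 2-fold higher and 4645 lower.

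Genes of the lesion margin were lower in the field. Lcn2, an iron-binding acute-phase protein, stood at 123 CPM in the field and 1941 CPM in those bins (-3.98, -4.16 to -3.81), C3 at 417 and 2700 CPM, and Lyz2, the lysozyme of myeloid cells, at 787 and 3377 CPM. S100a9, a neutrophil gene, stood at 12.9 and 187 CPM, and 7 of 8 fibroblast and collagen genes were lower (median -1.37). Ttr had the lowest ratio (-5.85), which turned to 0.11 when only bins with at least 5 UMIs of Mmp3, Saa3 and Steap4 were used. The lesion bins also held 30 UMIs of Slc4a5 and 20 of Prr32, which had 0 in the field. The part of choroid plexus tissue in the Ttr ratio was not tested.

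The bins just inside and just outside the threshold are given as a description, since the rule's own count picked them. The 597 members with exactly 5 UMIs in the block had a median of 360 UMIs, and 732 bins outside with exactly 4 had 401. Of 342 genes with enough UMIs, 0 (0.00%) differed by 2-fold. Spp1 stood at 1847 CPM just inside and 1149 CPM just outside, and Apoe at 38503 and 31446 CPM.

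The same rule applied to the 3 days section found 806 of 119617 bins (0.674%) in 73 patches, the largest of 94 bins, and none lay 3 bins deep. These bins held 753 UMIs of Gpnmb and 17 of Cst7, so Gpnmb alone chose most of them. Against all other bins of that section, on both sides of the axis, 2086 genes (15.7%) were at least 2-fold higher and 1653 (12.4%) lower. The sections differ in animal and plane, so values stand side by side only. Spp1 stood at 1372 CPM in the 3 days bins and 3699 CPM in the 28 days field, and Apoe at 4524 and 58332 CPM. Lag3 stood at 3.24 and 367 CPM, and Itgax at 1.62 and 122 CPM.

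Some genes stood higher at 3 days. Mki67, a nuclear marker of cycling cells, stood at 136 CPM in the 3 days bins and 10.5 CPM in the field. The macrophage enzyme Arg1 stood at 160 CPM at 3 days and had 0 UMIs in the field, and the scavenger receptor Msr1 stood at 121 and 14.9 CPM. All 9 tested proliferation genes were higher than in the rest of the 3 days section (median 3.50), while in the field only Pcna had enough UMIs to be tested (0.64).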

How the data were processed

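Visium HD was run on 1 brain section 3 days and 1 section 28 days after CCI. The authors deposited raw UMI counts per gene and 16 µm bin, made with Space Ranger 4.0.1 and, per the labels, build mm10, with no normalization. Of 19070 genes, those with 200 or more UMIs over the 2 sets compared were used. Within a set of bins UMIs were summed and expressed as CPM, 0.5 UMI was added, and the log2 ratio was taken with an exact conditional binomial interval. The symmetry axis was found from 10 regional genes, whose mirrored tiles correlated at 0.61 over 5191 tiles. Named genes were the 15 highest and 10 lowest against the remaining bins, the 8 highest and lowest against the lesion bins, the 5 highest and lowest of core against edge, and the highest, lowest and most abundant gene of each list, with cell type markers. Abca1, Arg1, C3, Cd5, Cd8a, Ctsa, Ctsd, Lgals3, Lpl, Mki67, Msr1, P2ry12, Ppp1r1b, Ramp3, S100a4, Tcf7l2, Tmem119 and Vim were named after their values were seen. The members and the 35 lists were chosen with earlier results of these data known. The steps were tested on simulated data. Some genes that the rule names are not reported here. Alternatives were other thresholds, TMM scaling, UMIs per bin and single patches. The software was R 4.3.3 with edgeR 4.0.16 (TMM factors) and Python 3.11.15 with scipy 1.17.1, numpy 2.4.6 and pandas 2.3.3.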

Additional observations from a re-analysis of the deposited data

Results flagged for a closer look

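Ecel1 and Pvalb, 2 of 146 named genes, were at least 2-fold apart from the remaining bins in opposite directions in the 2 sections. The remaining bins were those at columns below 240 at 28 days and all other bins of the section at 3 days, so the references differ. Ecel1 had a log2 ratio of 1.72 in the 28 days field and -2.24 in the 3 days bins of the same rule. Pvalb had 1.18 and -3.11. The difference was not tested, since each time had 1 section, and the bins lay in different tissue. Both rested on the largest patch at 28 days, as members outside it had -1.74 for Ecel1 and -0.18 for Pvalb. The place of Pvalb also depended on the reference. Its median was 87.4 CPM over field tiles and 542 CPM over mirror tiles. For the largest patch and its own mirror tissue the medians were 117 and 602 CPM. Tiles of Pvalb overlapped, at 0 to 2571 CPM in the field and 0 to 6860 CPM in the mirror tissue.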

How the results depend on the processing

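No paired analysis was possible because each group had 1 section. On the scale of UMIs per bin the median of all genes against the remaining bins moved from -0.13 to -0.77, and 565 genes were at least 2-fold higher and 4374 lower. Against the mirror tissue the lower genes numbered 1734 on that scale (all-gene median -0.53). Against the Mmp3, Saa3 and Steap4 bins 9 were higher and 4645 lower (median -1.65). Of the named genes at least 2-fold higher there as CPM, these log2 ratios turned negative: Ccl3 -0.20, Ermn -0.66, Fcrls -0.28, Flt1 -0.55, H2-Q7 -0.048, Ifi27l2a -0.042, Itgax -0.13, Mbp -0.060, Mog -0.25, Pex5l -0.054, Plau -0.58, Pvalb -0.056 and Spp1 -0.17. Genes higher by less than 2-fold as CPM that also changed sign are not listed. Members held fewer UMIs per bin, which that scale keeps by construction. With no gene minimum 4674 genes were higher, and with calls at a log2 ratio of 2, 375 were higher and 599 lower. With the lesion genes at 0 in the block, Col1a1 became -0.54 and Dcn -0.20. In the largest patch alone Ccdc153 became -1.78, Col1a1 -2.49 and Dcn -1.36. Without it Cabp7 became -0.78, Dsp -1.08, Ecel1 -1.74, Pvalb -0.18, Trim62 -0.62 and the B and plasma cell list median 0.75. Against its own mirror tissue the largest patch had Col1a1 at -0.81, Dcn at -0.39 and Penk at 0.43. With lesion bins of at least 5 UMIs Ttr became 0.11. Settings added after the results were seen were the 3 on patches and UMIs per bin against the mirror and lesion bins. Of 2636 values of named genes over all settings, 27 reversed, 772 moved beyond their counting interval and 1837 did not. Reversed means that a main ratio of at least 2-fold changed sign. Sign changes of smaller ratios are counted among the other values. The cause of the other moves was not tested. Precision is limited by 1 section per time and by depth, since a gene with few UMIs in the field has only a wide interval.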

Other observations

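Markers of other immune and border cells differed by list. The monocyte and border macrophage list summed to 867 CPM in the field, 200 CPM in the remaining bins and 69.1 CPM in the ring. Lyz2, which is also a phagocyte marker here, gave 787, 167 and 44.2 CPM of these sums. Arg1 had 0 UMIs in the field and 24 in the far larger set of remaining bins. The neutrophil list summed to 20.9 CPM in the field, 13.7 CPM in the remaining bins and 2.65 CPM in the ring, of which S100a9 gave 12.9, 8.66 and 0.934 CPM. Ly6g, Elane and Camp had 0 UMIs in the field and only 7, 8 and 2 in the remaining bins, too few to compare. The B and plasma cell list summed to 57.1 CPM in the field, 67.2 CPM in the remaining bins and 112 CPM in the ring, with Cd79b at 1.61, 0.52 and 0.778 CPM. Mrc1, a receptor of border macrophages, stood at 6.43 CPM in the field and 8.86 CPM in the remaining bins, while Ms4a7, a membrane protein of macrophages, stood at 36.6 and 5.69 CPM. The part of these cells in the results was not tested.

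Among the 10 lowest genes against the remaining bins was Pmch. Pmch, a hypothalamic neuropeptide, stood at 2.81 CPM against 192 CPM, and all 5 tested genes of the hypothalamus list were at least 2-fold lower. The choroid plexus markers Folr1 and Kcnj13 stood at 2.81 and 3.22 CPM against 19.6 and 34.9 CPM. The list of choroid plexus and ependymal genes was mixed, as its ependymal gene Ccdc153 was higher, at 41.4 against 15.3 CPM. Ccdc153 stood at 195 CPM in the small patches and 4.17 CPM in the largest. Members that held no UMI of the 2 rule genes themselves (1810 bins) had 2712 CPM of Spp1 and 47843 CPM of Apoe, against 4200 and 63656 CPM in the 3181 members that did.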
